A study of Mus musculus with 19 samples.

Results

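The synaptic vesicle and release genes are a list of 37 mouse genes whose proteins build the vesicle that stores transmitter, dock it at the release site, fuse it with the plasma membrane and recover it: synaptotagmins (Syt1, Syt2, Syt4, Syt5, Syt7 and Syt11), synapsins (Syn1, Syn2 and Syn3), the SV2 proteins (Sv2a, Sv2b and Sv2c), further vesicle membrane proteins (Syp, Syngr1 and Syngr3), SNARE proteins with their partners (Vamp1, Vamp2, Stx1a, Snap25, Stxbp5, Cplx1, Cplx2, Nsf and Napb), Rab3 proteins with rabphilin (Rab3a, Rab3b, Rab3c and Rph3a), active zone proteins (Rims1, Rims2, Unc13a, Unc13b, Unc13c, Bsn, Pclo and Erc2) and the endocytic adaptor Snap91. The genes were listed by name, with earlier results of these data known. Of the 37, 36 were among the 16233 genes of the table of all cells and the 15299 genes of the table that compares dissociations, and Pclo, which encodes the active zone protein piccolo, is not analysed here.

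Male C57BL/6J mice gave the cells, all from medial amygdala, and were kept on a reverse light cycle, and the cells were read by Drop-seq, a droplet method that tags each captured messenger RNA with a unique molecular identifier (UMI). Act-Seq, a dissociation that includes the transcription inhibitor actinomycin D, was used for naive mice (6 libraries), a saline-injected control (1 library, replicate number 7), mice after seizure (2), mice acutely stressed by immobilization (4) and mice acutely exposed to odors (4). A conventional dissociation was used for 1 further library after saline and 1 after seizure. All libraries came from mice of 8 weeks except seizure 1, immobilization 2 and 3 and odor 1 and 2, which came from mice of 9 weeks. The labels give the odor libraries as used for cell typing without immediate early genes, so that the odor comparison is an addition here. The series asks which cell populations respond to a stimulus, and the comparisons here ask whether the release genes moved with the stimulus, with the cell class or with the dissociation.

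A vesicle is filled with transmitter, tethered at the active zone by scaffold proteins and primed by the Unc13 family, and it fuses when a vesicle SNARE (VAMP) zips up with the membrane SNAREs (syntaxin and SNAP25). Synaptotagmins carry the calcium sensor, complexins clamp and support the assembled SNAREs, and the ATPase NSF with its adaptors, among them Napb, takes them apart again. Most of these proteins are known from nerve terminals, but several families have members with wider expression, such as Syt11, a synaptotagmin that does not bind calcium in the usual way.

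The sequences that lie just before the gene start are shown for 3 members whose levels went different ways across cell classes: Syn1, a textbook neuron-restricted promoter, and Sv2a and Syngr1, which were highest in oligodendrocytes and in microglia. Syn1 stood at 104 ± 23.0 counts per 1000000 UMIs (CPM; SD, n = 14 libraries) in neurons, and its mean lay between 2.20 and 23.2 in the glial and vascular classes. The sequences are RefSeq sequences of the GRCm38.p6 build, 5′ to 3′ on the gene's strand, and they end before the first annotated exon base of that gene. Capitals mark the motif matches named after them.

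Syn1 (chrX:20921005-20921168, minus strand): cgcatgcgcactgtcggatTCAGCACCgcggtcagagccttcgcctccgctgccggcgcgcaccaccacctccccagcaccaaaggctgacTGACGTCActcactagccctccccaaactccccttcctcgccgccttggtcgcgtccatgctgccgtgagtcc

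Sv2a (chr3:96180977-96181150, plus strand): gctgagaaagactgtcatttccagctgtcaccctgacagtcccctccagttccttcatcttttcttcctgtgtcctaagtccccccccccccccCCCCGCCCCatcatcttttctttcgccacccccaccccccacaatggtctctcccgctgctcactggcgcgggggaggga

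Syngr1 (chr15:80091084-80091333, plus strand): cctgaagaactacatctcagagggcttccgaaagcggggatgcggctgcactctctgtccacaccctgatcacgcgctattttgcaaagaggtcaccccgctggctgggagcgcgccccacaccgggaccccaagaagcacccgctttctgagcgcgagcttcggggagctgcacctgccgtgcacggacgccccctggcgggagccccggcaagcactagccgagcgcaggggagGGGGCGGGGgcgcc

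In Syn1 the first capitals, TCAGCACC, are the letters of the left side of the RE1 element, the site bound by the repressor REST in many non-neuronal cells. They span 145 to 138 bases before the first annotated exon base. The other capitals, TGACGTCA, are the palindromic cyclic AMP response element, at 73 to 66 bases before that base. In Sv2a (80 to 72 bases before the first exon base) and in Syngr1 (14 to 6 bases before) the capitals are a GC box, GGGGCGGGG, which Sv2a carries on the opposite strand. The whole printed Syngr1 stretch also lies inside the ribosomal protein gene Rpl3 (chr15:80077791-80091868), which runs on the other strand. Over windows of 250 bases before the RefSeq start and both strands, TCAGCACC was found in 1.32% of 32851 RefSeq promoters, TGACGTCA in 1.55% and GGGGCGGGG in 10.4%. Of the 29 listed genes with a promoter entry, Syn1 held each of the first 2, and 10 held the GC box (Rab3a, Rab3b, Rims1, Stxbp5, Sv2a, Syngr1, Syp, Unc13a, Unc13b and Unc13c). No match overlapped another in the printed stretches, and a match in these letters is a description of the sequence only. The median window held 16 CpG pairs in the listed genes and 6 over all promoters.

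The table of all cells held 20679 cells and 35709950 UMIs in 16 Act-Seq libraries, with 43 to 2189 cells and 116492 to 3723521 UMIs a library and a median of 1222 UMIs a cell. Classes are the authors' own, with neurons taken as the 2444 cells of the authors' neuron table, which form clusters N1 to N16. Another 6206 cells that the authors put in the neuron class lay outside that table. Neurons held the highest level of 11 of 14 neuron markers, and each non-neuronal class the highest level of at least 10 of its 11 or 12 own markers, with none of these markers at 0. The neurons also carried astrocyte RNA: 11 astrocyte markers summed to 11287 to 17723 CPM in the neurons of each library, against 31151 to 34943 in astrocytes. Across libraries, 20 cell barcodes were shared (40 cells). Whether the libraries of one group stem from different animals is not labelled, so each p-value reflects variation from library to library, which can be technical.

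Neurons carried most of the release genes at a higher level than any glial or vascular class, but not all of them. The listed genes gave 51405 UMIs in neurons, which was 0.735% of all neuronal UMIs. In the median, a listed gene stood at 21.1% of its neuron level in astrocytes, 11.8% in oligodendrocytes, 26.0% in their precursors, 8.19% in microglia, 7.06% in endothelial cells and 5.22% in mural cells, the cells that wrap small vessels. Over 8249 genes the same medians were 98.0%, 77.4%, 121%, 78.8%, 84.8% and 88.2%. Every library of the class lay below every neuron library for 22 of 36 listed genes in astrocytes, 21 in oligodendrocytes, 16 in precursors, 24 in microglia, 22 in endothelial cells and 25 in mural cells. The share of all genes below in this way was not counted, so these counts are not shown to be particular to the list. The neuron markers themselves, as a sum, stood at 10.2%, 6.95%, 17.2%, 4.84%, 8.97% and 10.1% of their neuron level in those 6 classes, and the part of neuronal RNA in these glial and vascular levels was not tested. That neuron level was uneven, so these shares are a poor yardstick for most neurons. The marker sum was 80810 CPM in cluster N12 and 25319 in N9. It was 5848 in N10 and N11, 4736 in N1 to N8 and 3962 in N13 to N16. Classes were made from all genes of these cells, so these differences are a description with no test. Each CPM below is a share of the UMIs of that class in that library (at least 10 cells), and since each captured messenger gives 1 UMI whatever its length, levels of different genes are set side by side on that scale.

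**Figure D1:**
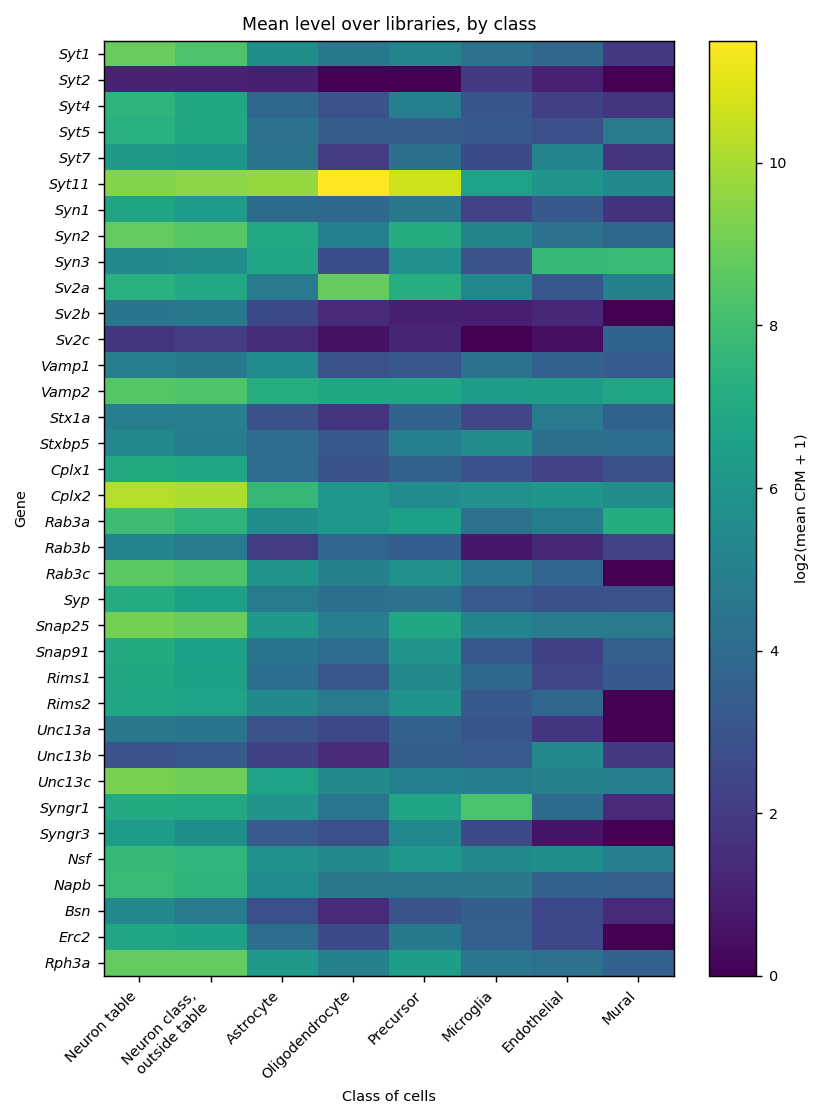
Heat map of log2(mean CPM + 1) over libraries for the 36 genes in rows, ordered by role, and the 8 cell classes in columns. Most rows are brightest in the neuron columns, while Syt11 and Sv2a are brightest in oligodendrocytes, Syngr1 in microglia, and Syn3 in endothelial and mural cells.

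In neurons the leading gene was Cplx2, which encodes complexin 2, at 1185 ± 232 CPM (SD, n = 14 libraries; lowest 915, median 1143, highest 1649). Snap25, the membrane SNARE, was the steadiest of the abundant members at 552 ± 36.3 (486, 555 and 611). Syt11 stood at 666 ± 69.5 (552, 655 and 839). Unc13c, which encodes the priming protein Munc13-3, stood at 557 ± 157 (428, 507 and 947). Syt1, the fast calcium sensor of release, averaged 458 ± 340.3, with 1 library, naive 5, at 1618 on 10 neurons. Its median was 359 and its lowest value 288.

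Of the 10 members highest in naive neurons, the remaining 5 lay closer together over all 14 neuron libraries. Rph3a, which encodes the Rab3 effector rabphilin, was at 429 ± 36.7 (SD, n = 14; lowest 354, median 431, highest 495). Syn2, a synapsin that ties vesicles into the reserve pool, was at 428 ± 80.9 (309, 415 and 622). Rab3c and Rab3a, small GTPases of the vesicle surface, were at 374 ± 107 (170.4, 397 and 553) and 236 ± 61.6 (162, 222 and 426). Vamp2, the main vesicle SNARE of the forebrain, was at 353 ± 57.0 (269, 356 and 422). Rph3a, Syn2, Rab3c and Vamp2 did not differ in order beyond their spread over libraries. At the low end were Syt2 (7 UMIs in all neurons) and Sv2c (22 UMIs), with means of 1.16 and 2.30 CPM.

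In neurons the Vamp, complexin, Unc13, SV2, synapsin and Rab3 families each drew most of their UMIs from 1 listed member. Of the family's UMIs in neurons, Vamp2 gave 93.1% against Vamp1, Cplx2 90.5% against Cplx1, Unc13c 93.3% (Unc13a 5.0%, Unc13b 1.7%) and Sv2a 83.6% (Sv2b 14.4%, Sv2c 2.0%). These shares pool all neurons and do not hold for each cluster. Unc13c ran from 172 pooled CPM in N9 to 801 in N1, while Unc13a and Unc13b were highest in N12 (115 and 94.7). Syn2 gave 74.3% of synapsin UMIs, with Syn1 at 18.5% and Syn3 at 7.3%. Syn2 shares bases with Timp4 on the other strand (248 pooled CPM in neurons), and the part of Timp4 reads in the Syn2 counts was not tested. Rab3c led its family with 61.7%, followed by Rab3a with 32.9% and Rab3b with 5.4%. Rims1 and Rims2, active zone scaffolds that bind Rab3, were near balance, with Rims1 at 54.6%. The synaptotagmins were spread over several members, with pooled levels of 655 CPM for Syt11, 358 for Syt1, 157 for Syt4 and 135 for Syt5. The balance moved with class: Vamp1 gave 24.5% of Vamp UMIs in astrocytes, Syn3 88.3% of synapsin UMIs in endothelial cells and 94.6% in mural cells, and Unc13b 53.7% of Unc13 UMIs in endothelial cells.

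Syt11 stood above its neuron level in oligodendrocytes, their precursors and astrocytes. In oligodendrocytes it stood at 2897 ± 214 CPM (SD, n = 15 libraries; lowest 2522, median 2945, highest 3233), which was 444% of its pooled neuron level. In precursors it stood at 1624 ± 181 (1224, 1639 and 1939.7; 249%), and in astrocytes at 830.4 ± 112 (603, 816 and 1034; 127%). Every oligodendrocyte and precursor library lay above every neuron library, and in astrocytes 13 of 14 libraries lay above their own neurons. Microglia held 98.4 ± 47.7, below every neuron library. Syt11 lies at chr3:88744700-88775164 on the minus strand (mm10).

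Sv2a, the vesicle glycoprotein that binds the antiseizure drug levetiracetam, stood above its neuron level in oligodendrocytes. Oligodendrocytes held 441 ± 92.0 CPM (SD, n = 15; lowest 325, median 419, highest 688) and neurons 158 ± 70.2 (n = 14; 78.5, 141 and 341), with 14 of 14 libraries higher in oligodendrocytes than in their own neurons and overlap only through the highest neuron library. Precursors held 141 ± 69.2, near the neurons, and astrocytes 25.2 ± 11.8. Of the 3 SV2 genes in oligodendrocytes, Sv2a gave 99.6% of the UMIs. Vamp2, next in level in oligodendrocytes, stood at 119 ± 30.2 there, below every neuron library, and between 77.9 and 141 in every glial or vascular class.

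Syngr1, which encodes the vesicle membrane protein synaptogyrin 1, was highest in microglia at 302 ± 52.1 CPM (SD, n = 15; lowest 237, median 288, highest 445), above every neuron library (129.7 ± 32.5, n = 14; 42.6, 128 and 189). Microglia held almost none of its relative Syngr3 (4.92 ± 5.86), so that Syngr1 gave 98.4% of the pair's UMIs there against 67.5% in neurons. Syngr1 shares bases with Rpl3, a ribosomal protein gene on the other strand, and strand use in counting is not stated in the labels. Stxbp5 (tomosyn), which holds SNAREs in an inactive complex, was at 48.3 ± 25.7 in microglia and 39.5 ± 29.2 in neurons, a difference inside the spread over libraries.

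Syn3, which encodes synapsin III, stood highest in vascular cells: 206 ± 107 CPM in endothelial cells (SD, n = 15; lowest 50.8, median 212, highest 407) and 222 ± 117 in mural cells (n = 12; 39.2, 233 and 415), against 43.5 ± 21.2 in neurons (22.9, 38.7 and 108). It was also higher in astrocytes (112 ± 39.0) than in their own neurons in 14 of 14 libraries. Syn3 (chr10:86055125-86498896, minus strand) contains the whole of Timp3 (chr10:86300372-86349506, plus strand), which encodes an inhibitor of matrix metalloproteases. Timp3 stood at 2510 pooled CPM in mural cells, 1914 in endothelial cells, 1005 in astrocytes, 390 in neurons, 55.3 in oligodendrocytes and 37.9 in microglia. In pooled level Syn3 ordered these 6 classes in the same way. Precursors broke the order, with Timp3 at 387 there, just below neurons, and Syn3 at 43.6, just above its 39.9 in neurons. Reads of the pair cannot be told apart here, so the Syn3 values are uncertain.

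Of the remaining members named for these classes, several rest on few UMIs. Unc13b, a priming protein, stood at 42.1 ± 23.2 CPM in endothelial cells (65 UMIs; 14 of 14 libraries above their neurons) and 10.2 ± 10.3 in precursors (20 UMIs), against 7.02 ± 6.45 in neurons. Stx1a, the syntaxin of the release site, was at 25.4 in endothelial cells (lowest library 0, highest 78.5) and 29.5 ± 18.1 in neurons. Rab3a in mural cells averaged 136 ± 143 on 57 UMIs, with 0 in the lowest library and 543 in the highest. Vamp1 was at 46.6 ± 19.4 in astrocytes, 19.6 ± 16.2 in microglia and 29.4 ± 11.2 in neurons. In precursors Syn2 was at 139 ± 49.8, below every neuron library. Cplx2 was at 199.8 ± 44.6 in astrocytes and 66.0 ± 44.3 in endothelial cells.

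**Figure D2:**
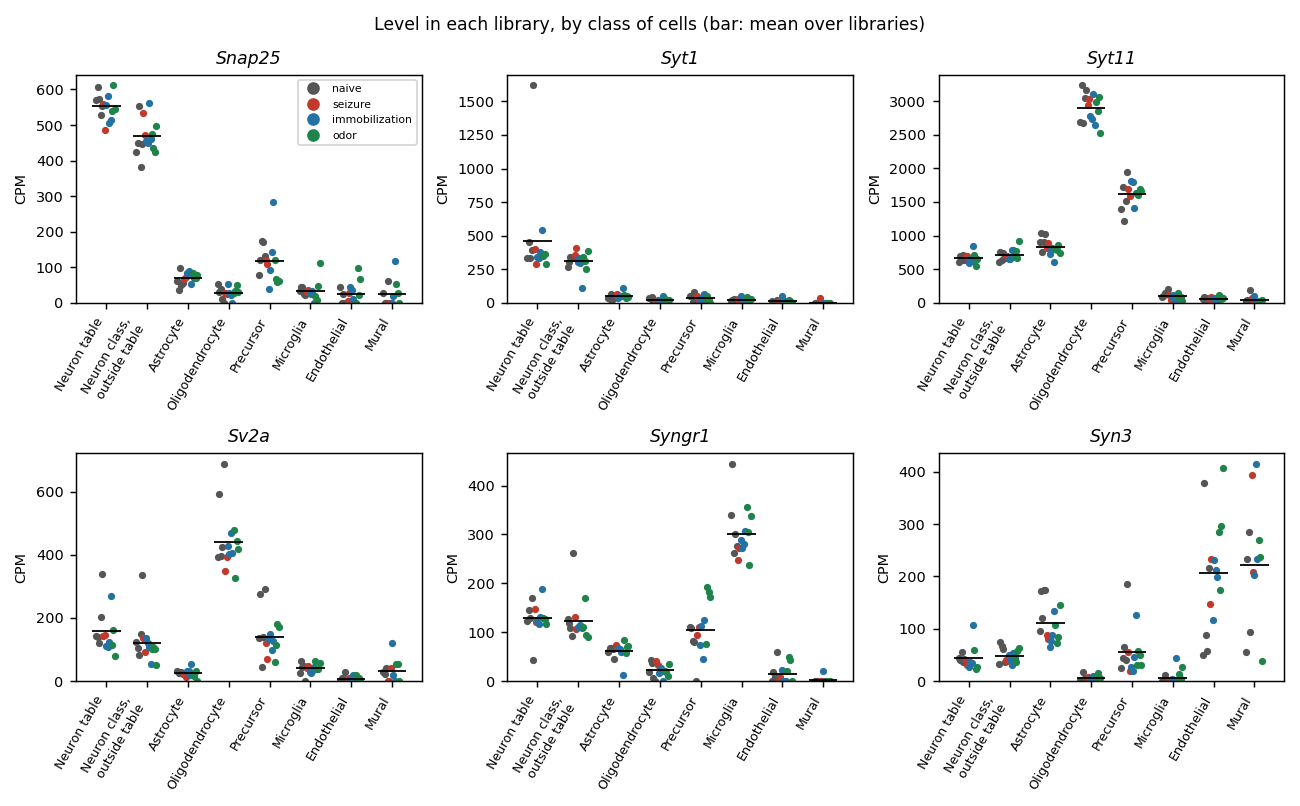
CPM per library (points, coloured by group) with the mean over libraries (bar) for Snap25, Syt1, Syt11, Sv2a, Syngr1 and Syn3 in each cell class. Snap25 points stay between 486 and 611 in neurons and are lower in every glial and vascular class, whereas the Syt11 points of oligodendrocytes (2522 to 3233) stand above all others.

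The share of cells with a UMI gave the same order once depth was equal. Each cell was thinned to 600 UMIs, which left out 94 shallower neuron-class cells outside the neuron table and 1 microglial cell. Syt11 was then seen in 80.1% of oligodendrocytes, 59.7% of precursors, 37.9% of astrocytes and 31.3% of neurons (97.2%, 87.5%, 64.7% and 71.8% before thinning), against 4.82% of microglia. Cplx2 was seen in 46.8% of neurons and 7.46% of astrocytes (84.7% and 19.6% before), and Snap25 in 28.4% and 2.72% (65.5% and 8.85%). Sv2a was seen in 22.2% of oligodendrocytes and 8.31% of neurons (58.5% and 24.8%), and Syngr1 in 15.6% of microglia and 6.83% of neurons (27.4% and 26.8%). Endothelial cells, which should lack Snap25, showed it in 1.01% after thinning and 2.80% before, at a median depth of 1204.5 UMIs against 2188.5 in neurons. A thinned neuron held 3.74 of the listed genes on average, an astrocyte 1.08, an oligodendrocyte 1.41 and a microglial cell 0.527.

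Neuron-class cells outside the neuron table were shallower (median 864 UMIs) and carried the release genes at nearly the level of those inside. Pooled over libraries, the median log2 difference, inside minus outside, was 0.15 over the 36 genes (from −0.16 to 0.38, with 30 above 0) and 0.01 over 10078 genes, of which 53.8% were above 0 (log2 of CPM plus 20). Syt4, a synaptotagmin of dense-core vesicles, had the largest mean difference over libraries, 0.60 (177 ± 56.5 CPM inside, 110 ± 30.9 outside, SD, n = 14), and was higher inside in 12 of 14 libraries. Bsn (bassoon, an active zone scaffold; 0.44, 11 libraries), Syt1 (0.42, 12), Syp (synaptophysin; 0.41, 12) and Rims1 (0.41, 10) followed. The mean differences of Syn3 (−0.13, higher inside in 6 of 14 libraries) and Syt11 (−0.07, 3 of 14) were below 0. Stx1a also had a mean of −0.13 (SD 0.83), but was higher inside in 8 of 14 libraries and in pooled level (33.8 against 28.4). Snap25 was at 552 inside and 466 outside, and higher inside in 13 of 14 libraries. A thinned cell outside held a mean of 3.21 listed genes.

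In 4 clusters of the neuron table several listed genes lay past a 2-fold line, in N2 1 did, and in the others none. Counting members whose pooled level was over 2-fold above or under 2-fold below the median of the other clusters (CPM plus 20), N9 (117 cells) had 7 above and 3 below, N12 (103 cells) 10 above, N10 (147 cells) 4 above, N11 (139 cells) 3 above and N2 1 below (Syt5). The clusters were made by the authors from these cells, so the values are a description and carry no test. The share of all genes past this line was not counted, so the counts are not shown to be particular to release genes.

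N9 was marked by high vesicle membrane and synaptotagmin transcripts. It held Sv2a at 437 pooled CPM, Syt4 at 474, Syt1 at 852, Syt5 at 325, Syp at 292, Syt7 at 166 and Syngr3 at 166, where clusters N1 to N8 together held 114, 131, 335, 114, 108 and, for Syt7, 53.2. In the 6 libraries with at least 10 N9 cells, Sv2a ranged from 308 to 603 and Syt4 from 186 to 666. Cplx2, Unc13c and Rph3a were the 3 members under the line in N9, at 487, 172 and 182 against 1116, 579 and 493 in N1 to N8. Rab3a outweighed Rab3c in N9, with 58.5% of Rab3 UMIs. N9 is a cluster with the vesicular glutamate transporter Slc17a6 (590 CPM).

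N12 was over the line for 6 of the 7 genes high in N9, all but Syt5, and for 4 more (Sv2b, Unc13a, Unc13b and Erc2). Its pooled levels were 1079 CPM for Syt1, 408 for Syp, 404 for Syt4, 346 for Sv2a, 301 for Syt7, 177 for Syngr3, 115 for Unc13a and 94.7 for Unc13b, the last on 23 UMIs. Unc13c, at 280.1, gave 57.1% of Unc13 UMIs in N12 against 93.3% over all neurons. N12 was also the cluster with the most nuclear RNA: Meg3 and Malat1, long noncoding RNAs of the nucleus, stood at 61706 and 28818 CPM there, at 10547 and 10166 in N9, and at 279.9 and 2130 in N1 to N8. The 11 astrocyte markers moved the other way, with sums of 2636 in N12, 3317 in N9, 11151 in N10 and N11, 16925 in N1 to N8 and 19112 in N13 to N16. The part of nuclear and astrocyte RNA in the levels of N9 and N12 was not tested.

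N10 and N11 were both over the line for Cplx2 and Erc2. Cplx2 stood at 2846 and 2584 pooled CPM in them (2730 together), against 1116 in N1 to N8, and Erc2, which encodes the ELKS scaffold of the active zone, at 321 and 311 against 86.8. Rab3b was at 132 in N10, where it ranged from 19.2 to 269 over 5 libraries, and Rims1 at 220 in the 2 clusters together. Erc2 was over the line in N12 as well, and Syt7, over it in N9 and N12, was also over it in N10. N10 and N11 are clusters with Slc17a7, the other vesicular glutamate transporter of the forebrain (152 CPM), while N1 to N8 held Gad2, an enzyme that makes GABA, at 479. Slc17a6 and Slc17a7 summed to 193 in N10 and N11 and 74.9 in N1 to N8. Slc17a6 alone went the other way, below its 67.5 of N1 to N8. Gad1, Gad2 and Slc32a1 summed to 108 in N10 and N11 and 818 in N1 to N8. Vamp2 was at 575 in N10 and N11 together and 368 in N1 to N8, and Snap25 at 849 and 518.

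Among the remaining clusters the leading differences were smaller. N1 led with Rims2 (210.0 pooled CPM) and Unc13c (801), and N2 with Syn3 (90.3, on 23 UMIs) and Unc13c (699). N3 and N4 led with Rab3c (463 and 496), N5 with Unc13c (643) and Rph3a (577), N6 with Bsn (78.5) and Syp (149.8), and N7 with Rims1 (145) and Erc2 (126). N8 led with Syn3 (56.6), N13 with Sv2b (26.5) and Syt5 (153), N14 with Unc13a (32.7), N15 with Rab3b (51.7) and Rims1 (129), and N16 with Syn3 (62.3) and Unc13c (581). The second genes of N3, N4, N8 and N14 were Vamp1, Unc13a, Sv2c and Syn3, each on at most 28 UMIs. Some first genes also rest on few UMIs: Bsn in N6 on 22, Syn3 in N8 on 23, Sv2b in N13 on 27 and Unc13a in N14 on 18. The lowest library held 0 for the first gene of N8, N13, N14, N15 and N16. Syt11 varied least among the abundant members, from 557 in N11 to 895 in N9.

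**Figure D3:**
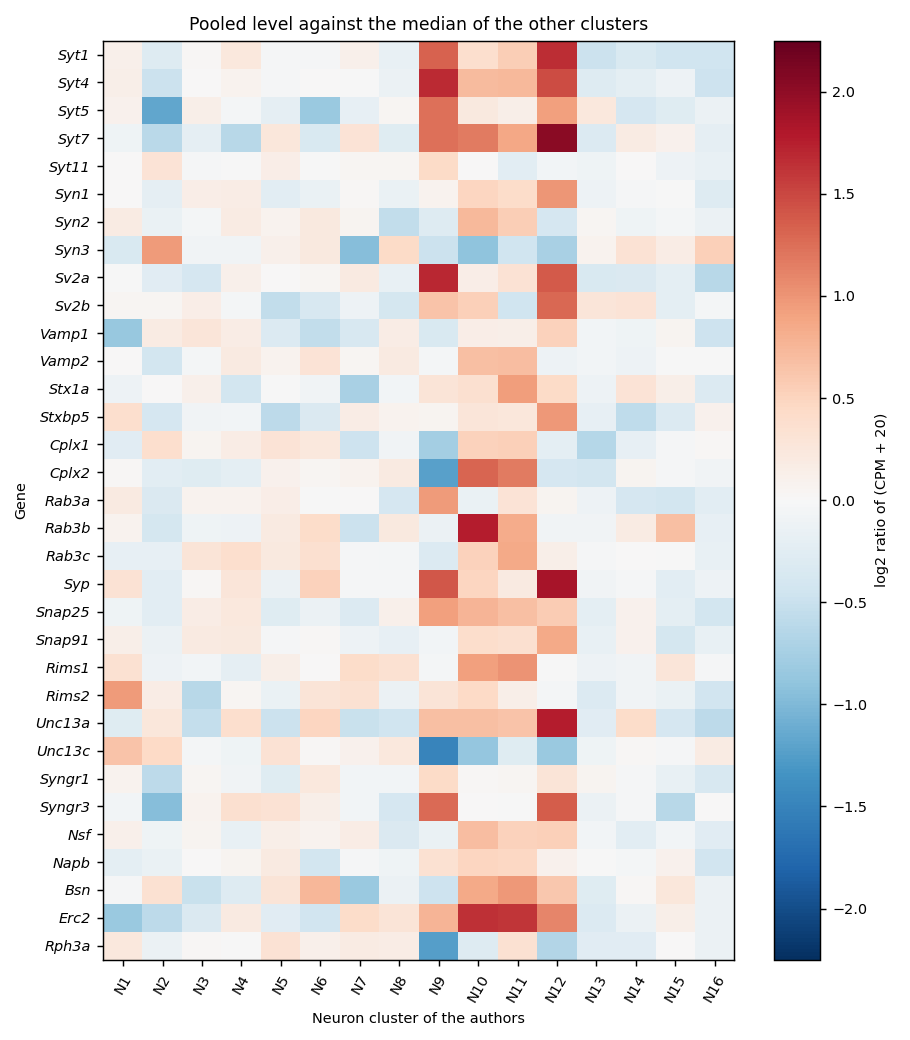
Heat map of the log2 ratio of pooled CPM plus 20 to the median of the other clusters, for the members with at least 100 UMIs (rows) in clusters N1 to N16 (columns). Warm cells gather in N9 and N12 for Syt1, Syt4, Syt7, Sv2a, Syp and Syngr3, and in N10 and N11 for Cplx2 and Erc2. Syt7 is also warm in N10, and Erc2 in N12.

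No tested release gene passed the test in neurons after any stimulus. With edgeR's quasi-likelihood test and Benjamini-Hochberg adjustment over 8808 genes, 0 of 33 tested members passed an adjusted p of 0.05 after seizure, immobilization or odor, where 0.102%, 0.0795% and 0.125% of all genes passed. At an unadjusted p under 0.05 the counts were 1, 1 and 1, and DESeq2 called 0, 0 and 0. Member medians of the log2 fold change were −0.02, −0.01 and −0.09, beside 0.00, −0.01 and 0.00 over all genes. None of 58 further tested release genes passed either, from a list of 70 others such as further synaptotagmins, transporters and endocytic genes. In the same fits Fos, the immediate early gene, rose after seizure by 4.73 (log2, SE 0.42, adjusted p = 2.92e-11), and its differences after immobilization (1.87) and odor (1.65) did not pass (adjusted p = 0.331 and 0.407). The 3 comparisons share the naive libraries (5 of them with at least 10 neurons).

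The abundant members show how close the groups lay. Snap25 stood at 571, 608, 573, 528 and 554 CPM in naive neurons, at 559 and 486 after seizure, at 556, 581, 505 and 514 after immobilization, and at 539, 611 and 546 after odor. The groups overlapped throughout. Cplx2 stood at 1248, 1338, 987, 915 and 1150.0 in naive neurons, and at 1649 and 968 after seizure, so that the seizure libraries held both a value above and a value inside the naive range. Its log2 fold change after seizure was 0.31 (SE 0.21, edgeR adjusted p = 0.999), and −0.14 without seizure 1. After immobilization Cplx2 stood at 1012, 1529.8, 1105 and 1461, and after odor at 1141, 941 and 1145.

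Syn2 had one of the 3 largest positive differences in each comparison. It stood at 381, 377, 343, 309 and 554 CPM in naive neurons, where naive 5 was the high library. Seizure libraries held 477 and 419, immobilization libraries 398, 446, 416 and 622, and odor libraries 393, 438 and 414, all above the first 4 naive libraries, with 1 of them, immobilization 4 at 622, also above naive 5. The log2 fold changes were 0.37 (SE 0.17, unadjusted p = 0.0368), 0.29 (SE 0.15) and 0.25 (SE 0.16), with edgeR adjusted p of 0.999, 0.9998 and 0.865. Timp4, which shares bases with Syn2 on the other strand, had log2 fold changes of 0.31, 0.25 and 0.38 in the same comparisons. None of these passed (edgeR adjusted p = 0.999, 0.9998 and 0.787), and the part of Timp4 reads in the Syn2 values was not tested. Syt4 had the largest negative difference after immobilization, −0.47 (SE 0.20, unadjusted p = 0.0211, edgeR adjusted p = 0.962). It stood at 178, 183, 164, 227 and 298 in naive neurons and at 96.6, 122, 185 and 271 after immobilization, with overlap. Rab3b had the largest after odor, −0.80 (SE 0.39, unadjusted p = 0.0442, adjusted p = 0.748), with 46.8, 48.5, 22.9, 49.5 and 42.6 in naive neurons and 25.2, 16.3 and 22.7 after odor.

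The other members with the largest differences spanned low and abundant genes. After seizure they were Sv2b (0.53, SE 0.42), Stxbp5 (−0.55, SE 0.38), Syngr3 (−0.50, SE 0.31) and Bsn (−0.42, SE 0.34). After immobilization they were Rph3a (0.22, SE 0.15), Napb (0.21, SE 0.18), Unc13a (−0.44, SE 0.37) and Syngr3 (−0.37, SE 0.28). After odor they were Snap91 (0.17, SE 0.20), Syt5 (0.17, SE 0.19), Stxbp5 (−0.61, SE 0.35) and Unc13a (−0.48, SE 0.39). All of these are log2 fold changes with edgeR adjusted p of 0.834 or higher. Sv2b turned to −0.61 without seizure 1 and to −0.07 with age as a covariate. In the odor comparison the 6 nuclear RNAs summed to 6620 to 16631 CPM in naive neurons and 1485 to 4970 after odor, and Meg3 among them fell by 2.59 on the log2 scale (SE 0.41, adjusted p = 0.000326). Its part in the odor values was not tested.

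Neuron-class cells outside the table gave the same counts. None of 33 tested members passed in any of the 3 comparisons (edgeR adjusted p under 0.05), where 0.116%, 0.0812% and 0.058% of 8619 genes passed. At an unadjusted p under 0.05 the counts were 0, 0 and 1, and DESeq2 called 0 in each.

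Astrocytes were the class in which release genes passed the test, in 4 instances among 28 tested members. In the astrocyte fits 0.466% of 10520 genes passed after seizure, 1.51% after immobilization and 0.656% after odor, and 1, 2 and 1 listed genes passed. The median log2 fold changes of the 28 were 0.18, 0.20 and 0.20, beside −0.01, −0.02 and −0.01 over all genes. In the same astrocytes 14 neuron markers summed to 344 to 971 CPM in naive libraries, 893 to 949 after seizure, 630 to 908 after immobilization and 687 to 1020 after odor, and their part in these medians was not tested. None of the 52 further release genes passed.

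Vamp1, the second vesicle SNARE, rose in astrocytes after odor and after immobilization. It stood at 26.3, 31.2, 30.9, 18.5 and 39.5 CPM in the naive libraries, at 54.9, 75.5, 59.8 and 85.5 after odor, and at 44.7, 47.4, 71.8 and 40.2 after immobilization. Every odor and every immobilization library lay above every naive library. The seizure libraries held 31.1 and 41.1, inside or just above the naive range. The log2 fold change after odor was 1.21 (SE 0.23, edgeR adjusted p = 0.00143) and passed in all 23 alternatives (adjusted p 0.000129 to 0.0209). After immobilization it was 0.92 (SE 0.23, adjusted p = 0.0189) and was lost in 5 of 23, among them without naive 1 (adjusted p = 0.0640), naive 4 (0.0778) or immobilization 3 (0.244), with DESeq2 (0.0914) and with age as a covariate (0.143). These levels rest on 3 to 61 UMIs a library. Vamp1 shares bases with Tapbpl and Cd27 on the other strand, and neither passed the test in astrocytes. Their log2 fold changes had the same sign as that of Vamp1: 0.64 (edgeR adjusted p = 0.659) for Tapbpl and 0.92 (0.667) for Cd27 after odor, and 0.14 (0.967) and 0.74 (0.726) after immobilization. The part of their reads in the Vamp1 counts was not tested.

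Syn3 was lower in astrocytes after immobilization. The naive libraries held 95.7, 172, 121, 174 and 175 CPM and the immobilization libraries 65.0, 76.2, 87.9 and 134. Of the 4 immobilization libraries, 3 lay below every naive library and immobilization 4, with 10 UMIs, lay among them. Syn3 fell by 0.85 on the log2 scale (SE 0.18, edgeR adjusted p = 0.0046), and the call was lost in 1 of 23 alternatives, without immobilization 1 (adjusted p = 0.0769). Lower values were not particular to immobilization: both seizure libraries (80.9 and 87.8) also lay below every naive library. The odor libraries ran from 72.7 to 144.6 (median 95.8, against 172 in naive libraries). Syn3 did not pass after seizure or odor. Timp3, which lies inside Syn3, stood at 1138 ± 165 in naive astrocytes (SD, n = 5) and 874 ± 88.4 after immobilization (n = 4), a log2 difference of −0.38 (adjusted p = 0.0810), and the part of its reads in the Syn3 counts was not tested.

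Unc13c was higher in astrocytes after seizure. It stood at 94.7, 73.2, 85.5, 40.7 and 79.0 CPM in the naive libraries and at 116 and 171 in the seizure libraries, both above all naive values. The log2 fold change was 0.92 (SE 0.21, edgeR adjusted p = 0.022). High values were not particular to seizure: the odor libraries ran from 85.5 to 157.8 (median 135, against 79.0 in naive libraries). The immobilization libraries ran from 53.6 to 104.9 (median 95.5). Unc13c did not pass in astrocytes after odor or immobilization. Unc13c is a neuronal priming gene that stood at 20.8% of its neuron level in astrocytes, and in neurons themselves it read 434 and 582 after seizure beside 454 to 852 in naive libraries. The astrocyte call was lost with DESeq2 (adjusted p = 0.108), with the top 5% of doublet scores removed (0.0815), without naive 4 (0.0890) and without seizure 2 (0.9997), in 4 of 23 alternatives.

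In the other glial and vascular classes 0 listed genes passed (edgeR, adjusted p under 0.05; DESeq2 called 0 in each). Of the 17 members tested in oligodendrocytes, 2, 1 and 1 had an unadjusted p under 0.05 after seizure, immobilization and odor, where 0.134%, 0.9% and 0.524% of genes passed. Of 14 tested in precursors the unadjusted counts were 0, 0 and 2 (0.122%, 0.0% and 0.0204% of genes passed). Of 11 tested in microglia, 4 in endothelial cells and 1 in mural cells, none had an unadjusted p under 0.05. The shares of genes that passed were 0.431%, 1.46% and 0.0923% in microglia, 0.63%, 1.76% and 0.0% in endothelial cells, and 0.686%, 0.0% and 0.0% in mural cells. Whether the astrocyte differences differed from those of neurons was not tested.

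**Figure D4:**
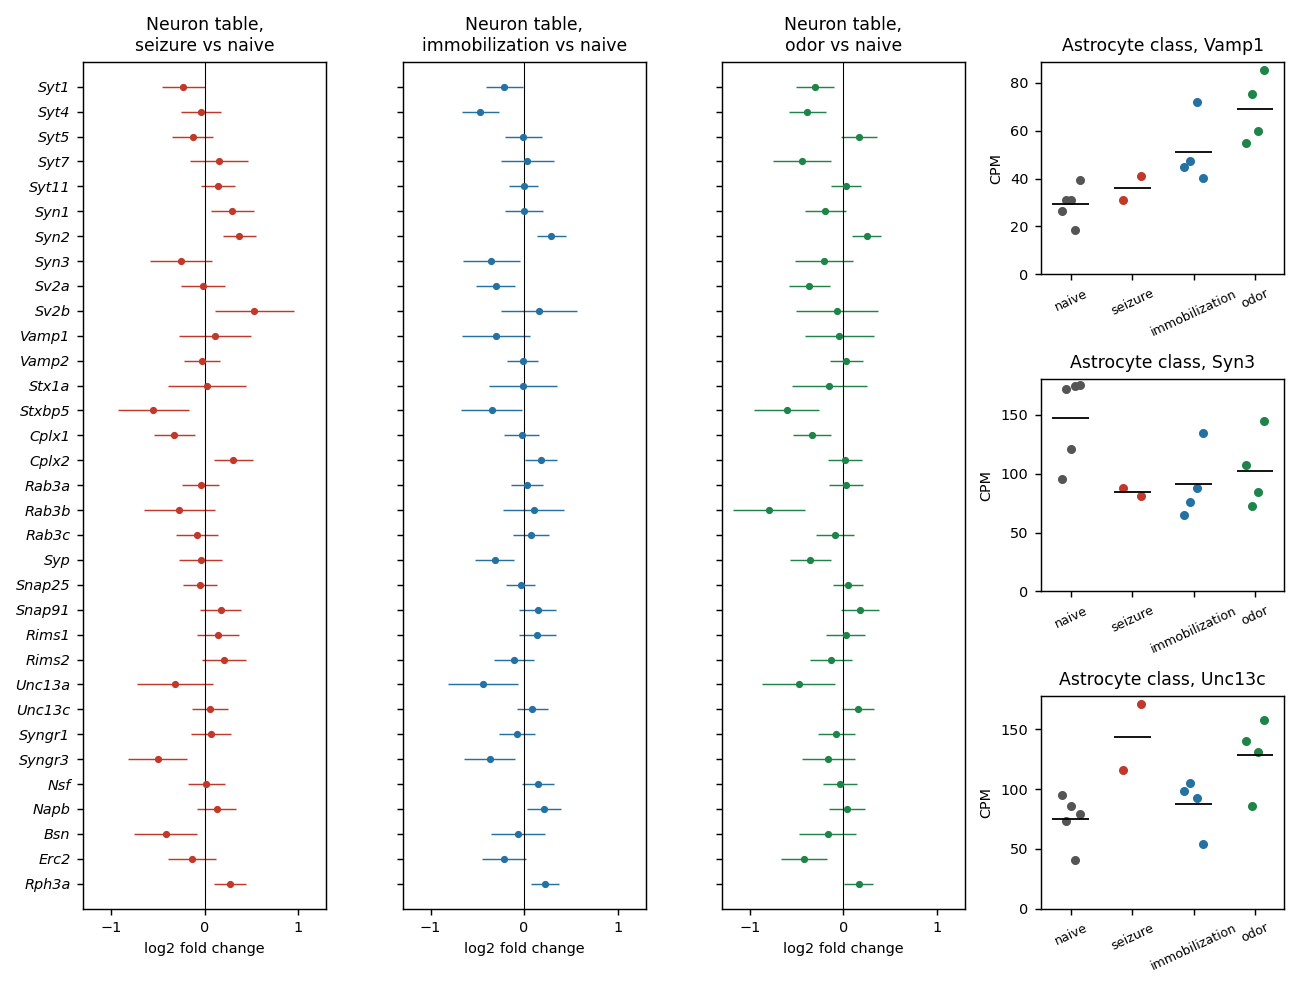
Log2 fold change with its standard error for the 33 members tested in neurons after seizure, immobilization and odor against naive, and CPM per library of Vamp1, Syn3 and Unc13c in astrocytes by group. The neuron points scatter around 0 without passing the test, while the astrocyte Vamp1 points of odor (54.9 to 85.5) lie above those of the naive libraries (18.5 to 39.5).

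The dissociation table held 8071 cells, 15299 genes and 16872067 UMIs in 5 libraries: saline and 2 seizure libraries by Act-Seq, and 1 saline and 1 seizure library by the conventional protocol. Each method and treatment pair except Act-Seq seizure is 1 library, and 1116 cell barcodes were shared between libraries (2232 cells). The cell barcodes of the 2900 Act-Seq seizure cells did not match those of the same cells in the table of all cells, although library and counts did, so barcodes of this table were not used. The library codes of the saline and the 2 conventional libraries could not be checked in this way, and each comparison of methods rests on them. Over whole libraries, with treatment in the model, 17 of 35 tested members passed between methods (edgeR, adjusted p under 0.05), where 16.8% of 13607 genes passed. Of these, 13 were higher after conventional dissociation (8.36% of all genes) and 4 lower (8.44%). After seizure against saline, 0 of 35 passed, as did 0.0% of all genes, with 2 members at an unadjusted p under 0.05 and 0 called by DESeq2.

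Synaptotagmins and vesicle membrane proteins made up most of the genes that were higher after conventional dissociation. Syt1 stood at 149, 201 and 137 CPM in the Act-Seq libraries (saline, seizure 1 and seizure 2) and at 1036 and 722 in the conventional libraries (saline and seizure), a log2 difference of 2.35 (SE 0.23, edgeR adjusted p = 0.000393). Syt5, a synaptotagmin found on dense-core vesicles, stood at 59.7, 65.6 and 56.1 against 352 and 284 (2.32, SE 0.17, adjusted p = 0.000164). Syp, the classic marker of the synaptic vesicle, stood at 69.2, 80.8 and 43.8 against 313 and 275 (2.09, SE 0.23). The conventional libraries lay above all Act-Seq libraries for these 3 genes. Syngr3 (2.09), Syt4 (2.06), Sv2b (1.96), Sv2a (1.47), Sv2c (1.34), Rab3b (1.19), Snap25 (1.19), Rab3a (1.15), Nsf (0.92) and Syt11 (0.61) were also higher, with log2 differences in parentheses.

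The 4 lower genes were Unc13c, Rph3a and both complexins. Unc13c stood at 203, 240.1 and 239 CPM in the Act-Seq libraries and at 41.8 and 36.9 in the conventional ones, and fell by 2.55 on the log2 scale (SE 0.19, edgeR adjusted p = 0.000164). Rph3a stood at 199, 243 and 177 against 97.9 and 56.8 (−1.54, SE 0.25). Cplx2 stood at 374, 775 and 376 against 236 and 134 (−1.50, SE 0.40), and Cplx1 at 58.1, 67.7 and 33.3 against 35.3 and 16.4 (−1.22, SE 0.33), where the Act-Seq seizure 2 library lay just below the conventional saline library. Of 64 tested release genes outside the list, 16 were higher and 3 lower. The 5 with the lowest p were higher: Slc17a6, a vesicular glutamate transporter (2.84), Slc32a1, the vesicular GABA transporter (1.94), the SV2 relative Svop (1.33), the synaptophysin relative Synpr (1.66) and the tomosyn gene Stxbp5l (1.57).

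Single libraries moved this count: 11 members passed without the Act-Seq saline library, 10 without the conventional saline library, 12 without the conventional seizure library, 13 without seizure 2 and 21 without seizure 1. Syt1, Syt4, Syt5, Syp, Syngr3, Sv2a, Rab3a and Unc13c passed in each of these fits. DESeq2 called 16, of which 15 were shared. The share of all genes that passed in each of these fits was not set beside the counts.

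The cell makeup differed between the methods as well. Cells in clusters named from neuron markers were 1.09%, 1.24% and 1.16% of cells in the Act-Seq libraries (22, 22 and 13 cells) and 25.5% and 20.7% in the conventional ones (480 and 265 cells). A cluster led by the kinesin gene Kif5a, which the markers left unnamed, held 34.6%, 41.2% and 29.7% of Act-Seq cells and 0.691% and 2.42% of conventional cells. Of its cells, 1055 of the 1066 found in the table of all cells were in the authors' neuron class. In sums over whole libraries, fewer cells of a type and less RNA per cell cannot be told apart.

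Within neuron-like cells most differences were small against their error. Of 19 tested members 1 passed, Syt5, where 2.84% of 1726 genes passed. It stood at 276, 327 and 406 CPM in the Act-Seq libraries (on 18, 17 and 11 UMIs) and at 775 and 1043 in the conventional libraries, a log2 difference of 1.49 (SE 0.35, edgeR adjusted p = 0.0089), and the groups did not overlap. The call was lost when the Act-Seq saline, the seizure 1, or either conventional library was left out (adjusted p = 0.9997, 0.291, 0.303 and 0.9999). Syt1 stood at 1689.7, 1979 and 1697 against 2254 and 2608 (0.44, SE 0.35, adjusted p = 0.595). Unc13c was low with both methods (30.7, 38.4 and 111 against 67.0 and 51.7, on 2, 2 and 3 UMIs in the Act-Seq libraries) and was not tested. Cplx2 stood at 138, 653 and 369 against 472 and 295 (0.13, SE 0.44), and Rph3a at 246, 57.6 and 148 against 181 and 121 (−0.08, SE 0.52). After seizure 0 of 19 passed (1 at an unadjusted p under 0.05, DESeq2 0), where 0.174% of genes passed. Of 21 other release genes Bin1, an endocytic gene, was lower (−1.32, SE 0.38, adjusted p = 0.0478).

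The Kif5a-led cells carried the other part of the list. In the Act-Seq libraries they held Unc13c at 497, 479.8 and 632 CPM, Cplx2 at 930.0, 1680.4 and 1020.2, and Rph3a at 479, 481 and 464, where neuron-like cells of the same libraries held no more than 111, 653 and 246. Syt1 was the reverse, at 280.5, 346 and 298 in Kif5a-led cells. These cells also held 11 astrocyte markers at 16367 to 17756 CPM and little Meg3 (195 to 364), while Act-Seq and conventional neuron-like cells held 471 to 1733 of the former and 11813 to 39465 of the latter. Within the Kif5a-led cluster 0 of 32 tested members passed between methods (edgeR; 5 at an unadjusted p under 0.05), where 0.0134% of 7461 genes passed, and Syt5 turned to −0.80 (SE 0.69). When these cells were joined to the neuron-like cells, 24 of 35 members passed (17 higher and 7 lower after conventional dissociation), where 50.5% of 10865 genes passed. With every cluster whose matched cells the authors called neurons the count was 25 of 35 (18 and 7), where 48.8% of 11000 genes passed. These 3 cell sets were chosen after seeing the data, and the part of the cell makeup in the whole-library differences was not separated further.

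Unc13c and Cplx2 were also lower outside neurons in the conventional libraries, a comparison chosen after the values were seen. In astrocyte-like cells Unc13c stood at 122, 163 and 197 CPM by Act-Seq and at 13.2 and 20.05 by the conventional protocol (8 and 9 UMIs), and in microglia-like cells at 94.4, 90.5 and 63.2 against 15.4 and 13.8 (4 and 3 UMIs). Cplx2 stood at 216, 329 and 231 against 79.2 and 125 in astrocyte-like cells, and at 155, 194 and 139 against 34.8 and 18.4 in microglia-like cells. In each of these pairs all Act-Seq libraries lay above both conventional libraries, and no test was run within these cells. Kif5a and, in microglia-like cells, astrocyte markers were lower there in both conventional libraries as well. Kif5a stood at 575, 634 and 487 by Act-Seq and 124 and 13.8 by the conventional protocol in microglia-like cells, where 11 astrocyte markers summed to 3809, 3254 and 2092 against 1356 and 519, and 14 neuron markers to 633, 858 and 676 against 718 and 363. In astrocyte-like cells Kif5a stood at 1032, 1037 and 1165 against 145 and 247, and the neuron markers summed to 1260, 1440.4 and 1312 against 632 and 657. Their part in the Unc13c and Cplx2 values was not tested. Syt11 in oligodendrocyte-like cells stood at 2937, 3010.3 and 3056 by Act-Seq and 3206 and 3383 by the conventional protocol, and Sv2a there at 504, 359 and 400.0 against 359 and 393.

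**Figure D5:**
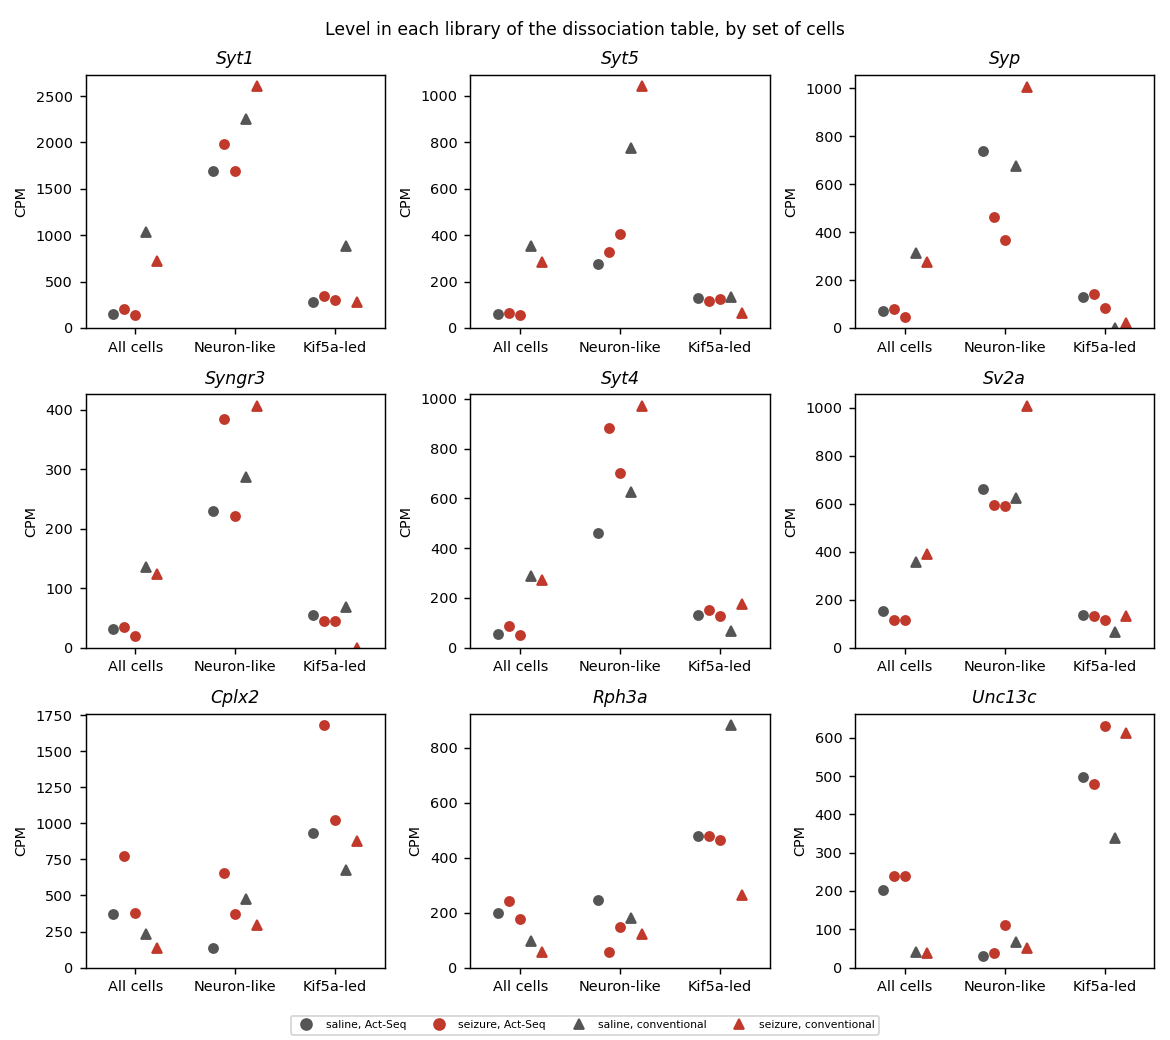
CPM per library for 9 members over all cells, in neuron-like cells and in the Kif5a-led cluster (circles Act-Seq, triangles conventional, grey saline, red seizure). Syt1, Syt5 and Syp are higher in the conventional libraries over all cells, and Unc13c, Cplx2 and Rph3a are lower. Within neuron-like cells the symbols of both methods overlap for Unc13c, Cplx2 and Rph3a and stay apart for Syt1 and Syt5.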

How the data were processed

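The members of the list and the lists of markers and of further release genes were chosen with earlier results of these data known. The deposited values are UMI counts in 3 tables, whole numbers with no scaling by the authors. The submitters' processing notes name bcl2fastq 2.17.1.14, STAR 2.5.0a and the build mm10. The counting tool, the cell filters and the use of strand were not given in the sources used here. Library, class and neuron cluster were read from the deposited cell names, and 0 columns belonged to other series.

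Counts were summed per library and class (at least 10 cells) and tested with edgeR 4.0.16 in R 4.3.3 (quasi-likelihood, TMM, filterByExpr, Benjamini-Hochberg over all genes of a fit, threshold 0.05), with groups as the only term, or treatment and method in the dissociation table. Cluster ratios used log2 of CPM plus 20. Leiden clustering of the dissociation table used scanpy 1.11.5 with leidenalg 0.10.2 (Python 3.11.15; 2000 variable genes, 30 components, 15 neighbours, resolution 0.8, seed 1) without the listed and immediate early genes, and named from at least 3 markers among the top 50 genes. No cell was removed as a doublet: Scrublet marked 118 cells (0.571%) in the table of all cells and 73 (0.904%) in the dissociation table, so an alternative without the 5% highest scores was run. The fit was tested on simulated data. Neurons entered from 14 libraries (5 naive, 2 seizure, 4 immobilization, 3 odor; naive 6 and odor 4 hold 5 neurons each), other classes from 15 and mural cells from 12. An SD over libraries covers counting error and the spread between libraries together. Counts at an unadjusted p under 0.05 are given for the listed genes only, with no matching share of all genes beside them. Genes were named with values if they passed in any fit, were among the 10 highest in naive neurons, had the 3 largest differences of either sign in neurons, were among the 3 highest in level or in ratio to neurons in a class (at least 20 UMIs), or led a neuron cluster. Alternatives were DESeq2 1.42.0, its size factors in edgeR, no filter, 20 cells, no library under 300 cells, age or replicate number as a term, all neuron-class cells, no N13 to N16, other clustering resolutions and leaving out each library.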

Additional observations from a re-analysis of the deposited data

Results flagged for a closer look

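In 49 groups of 4 or 5 libraries tested for a library far from the others, 6 values were set apart, and chance sets apart about 1 in 20 such groups. In naive neurons 5 of the 6 came from 1 library, naive 5, which holds 10 neurons and 23479 UMIs, 2 of the 10 in cluster N12. Its Syt1 level was 1618 CPM, with the next naive library at 454 and the lowest at 331. Its Unc13c level was 852 (next 539, lowest 454), its Rab3a level 426 (257 and 195), its Syngr3 level 298 (94.8 and 56.9) and its Snap91 level 298 (119.6 and 99.2). The remaining value was low: Rab3b in naive 3 was at 22.9, with the next library at 42.6 and the highest at 49.5. Without naive 5, 0 listed genes passed in neurons in each of the 3 comparisons (edgeR).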

How the results depend on the processing

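The counts of listed genes that passed stayed within 1.5 times the reported count in 89 of 98 alternatives that keep every library. The others were as follows. Neuron-class cells outside the neuron table gave 1 after odor with age as a covariate. Over the glial and vascular classes together, the count after seizure (1) became 0 with DESeq2 and 0 without the highest doublet scores, the count after immobilization (2) became 1 with DESeq2 and 1 with age as a covariate, and the count after odor (1) became 5 with no filter on low counts. Between dissociations, the count in neuron-like cells (1) became 24 with the Kif5a-led cluster added, 25 with all clusters matched to the authors' neurons and 0 in the Kif5a-led cluster alone, settings chosen after seeing the data. Leaving out 1 library at a time gave 0 to 2 after seizure, 1 to 4 after immobilization and 1 to 4 after odor over those classes, 0 to 1 in neuron-like cells and 10 to 21 over whole libraries (17). Signs turned for Syt5 (−0.80 in the Kif5a-led cluster alone), Cplx2 in neurons after seizure (−0.14 without seizure 1, 0.64 without seizure 2) and Sv2b in neurons after seizure (−0.0747 with age as a covariate, −0.61 without seizure 1, 0.93 without seizure 2); the cause was not tested. With the replicate block the counts were 0, 0 and 0 in neurons and 1, 2 and 1 over the glial and vascular classes, and it changed no other call. Replicate numbers did not pair the libraries: over 16 pairs with the same number, correlations of deviations ran from −0.11 to 0.09. Fits that left out 1 library carry no share of all genes beside their counts. The clustering at resolution 1.5 could not be fitted in neuron-like cells. Depth limits the low genes most, since Vamp1 in astrocytes rests on 3 to 61 UMIs a library.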
